A study of Canis lupus familiaris with 33 samples.

Results

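Methylated regions of the canine mammary gland were set against those of 10 other tissues of adult beagles, on the 38 autosomes. The regions were found by MBD-seq, in which sheared DNA is captured on beads that carry a methyl-CpG-binding domain, so that stretches with many methylated CpG sites are recovered and appear as peaks. Peaks of all 11 tissues that shared at least 1 base were merged, which gave 450791 union regions. Mammary gland had a peak in 232525 of them. Its members were described in 3 ways: 1130 regions had a peak in mammary gland alone, 2059 had a peak in the other 10 tissues and none in mammary gland, and 121528 were common to all 11, where the strength of the peak could be compared.

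The mammary gland list stood for 2 MBD libraries, from 2 animals labelled female, and the tissue had 1 input library, from one of them. The other tissues (cerebellum, cerebrum, colon, kidney, liver, lung, ovary, pancreas, spleen and stomach) also had 2 MBD libraries and 1 input library each. One of the mammary gland animals gave an MBD library of all 11 tissues, and the other gave one of ovary besides mammary gland. Of the other tissues, 7 had an MBD library labelled male, from an animal whose input libraries are labelled female, so by these labels sex differs between the mammary gland list and most of the lists it was set against. The design text names 3 beagles and the titles carry 4 animal names. All tissues were adult and normal, and the MBD libraries came from 500 ng of DNA sheared to about 300 bases and eluted at 600 and 800 mM. Each tissue had a single deposited list, so no spread between animals could be computed. With 1 tissue against 10, an exact permutation test over tissues cannot give a p below 0.0909, and the comparisons below are descriptions with ranks among the 11 tissues.

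In mammals, DNA methylation sits mainly on the cytosines of CpG pairs, is kept through cell division by maintenance methyltransferases, and is generally absent from active promoters and enhancers. Regions that gain or lose it therefore differ between cell types. The mammary gland is a branched epithelium of luminal and myoepithelial cells, embedded in connective tissue and fat with vessels and leukocytes, and its ducts and lobules grow and regress with the reproductive cycle. A fold in bulk tissue cannot tell a change in the share of methylated cells from a change within cells. The lists name no genes and no annotation of their genome build was used here, so regions are given by position on CanFam3.1, and the label of the tissue was not checked against marker genes.

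Mammary gland had 256454 autosomal peaks, rank 10 among the 11 tissues, between 251352 in colon and 353642 in ovary. Its peaks covered 162.6 Mb, against a median of 168.9 Mb in the others, and had a median width of 354 bases, rank 4. The fold of a peak is its enrichment as deposited by the authors, and below it is divided by the median of its list and called relative fold. The median fold was 6.90 in mammary gland and 6.19 (lung) to 8.80 (stomach) in the others. The folds of mammary gland reached far above the median. The 90th percentile of the folds was 3.19 times the list median and the 99th percentile 6.38 times, the highest values of the 11 tissues. In the other tissues the 99th percentile ran from 2.59 times (ovary) to 5.57 times (lung), with a median of 3.97. Mammary gland was also highest at each percentile computed between the 90th and the 99th. At the 85th percentile lung was higher, with 2.43 against 2.36, and the highest fold, 10.95 times the list median in mammary gland, ranked 4, below stomach, lung and colon. At the lower end, the 10th percentile of 0.575 ranked 6 and lay inside the range of the others.

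Mammary gland peaks lay mostly in regions that many tissues shared. Of its regions, 52.3% had a peak in all 11 tissues and 16.2% in 10 tissues. The 121528 regions of all 11 tissues are in every list by definition. Colon, pancreas and stomach had 217864, 218362 and 232837 regions in total, near the 232525 of mammary gland, so their share was similar. Mammary gland was among the tissues with a peak in 94.8% of the regions found in 10 tissues, where the mean over tissues is 90.9%. It was present in 4.56% of the regions found in 2 tissues and in 1.38% of those found in 1 tissue, where the means are 18.2% and 9.09%. The list thus held more of the widely shared regions and fewer of the rare regions than the mean over the tissues.

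**Figure D1:**
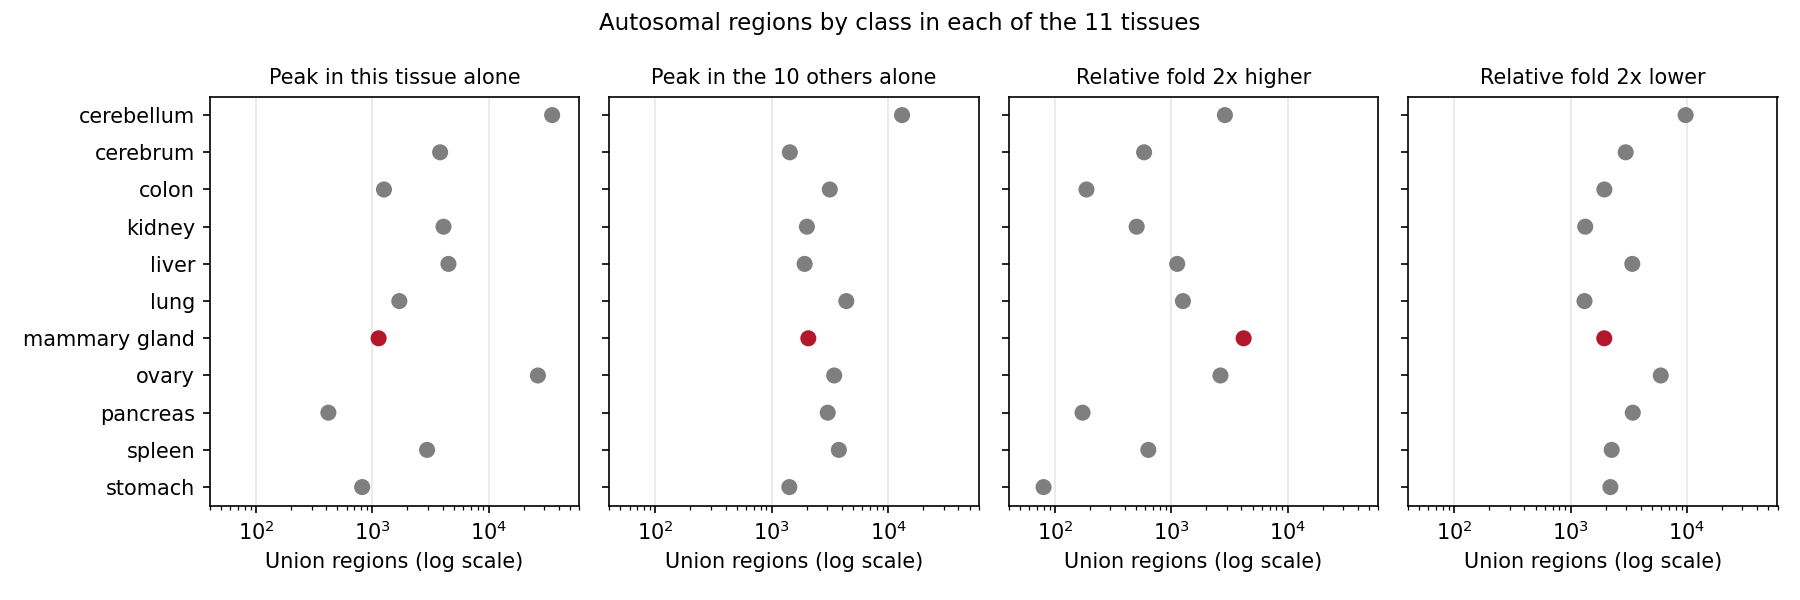
Number of autosomal union regions (x axis, log scale) in each of the 11 tissues for the 4 kinds of region, with mammary gland in red. Mammary gland is near the low end for regions of 1 tissue (1130) and has the highest count for relative fold at least 2 times higher (4192).

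Regions with a peak in mammary gland alone were few and mostly weak. The 1130 regions were 0.486% of the regions with a mammary gland peak, and mammary gland ranked 9 for their number. There were 1963, rank 7, with each list limited to the 50% of its peaks of highest fold, and 2442, rank 8, with equal list sizes. Pancreas had 418 and stomach 816, while the median of the other tissues was 3382 and cerebellum had 35015. They were short, with a median width of 253.5 bases (quartiles 234 and 281) against 507 bases over all mammary gland regions. Their median relative fold was 0.630. Only 42 of them, or 3.72%, exceeded the median of the list, against 50.3% of all mammary gland regions, and 9 reached 1.5 times that median.

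A few were strong, and the strongest of mammary gland, at 3.05 times its list median, was the strongest region of a single tissue in the series on this scale. The corresponding maxima in the other tissues ran from 1.31 (lung) to 2.52 (pancreas). By place within its own list it did not lead. The value of 3.05 lay below the 90th percentile of the mammary gland list, 3.19. The maxima of cerebellum, ovary and pancreas exceeded the 90th percentile of their own lists (2.44 in pancreas), and those of the other tissues did not. The mammary gland region lay on chromosome 23 at 51484409 to 51485447, was 1039 bases wide and had a −log10 p-value of 115. Its surroundings also carried mammary gland peaks. Within 7.51 kb, from 51483497 to 51491010, all 4 union regions had a mammary gland peak. In the other tissues this stretch had a single peak, of stomach. The stretch was bounded by regions of mammary gland alone, so this contrast follows in large part from how it was chosen. The relative folds of the other mammary gland peaks there were 0.644, 0.836 and 0.678. The neighbouring region on the lower side, 2005 bases away, had a peak in 8 tissues, and that on the upper side, 12772 bases away, a peak in 10.

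The next region by relative fold, on chromosome 12 at 4655039 to 4655577, reached 2.20 times the list median and had another mammary gland region 132 bases away. The third, on chromosome 35 at 24588826 to 24589156, had 1.95 and no other region of any tissue within 9018 bases. The fourth lay on chromosome 17 at 33659886 to 33660344 with 1.86, and the fifth on chromosome 3 at 85648812 to 85649194 with 1.72. The other 5 of the 10 strongest were on chromosomes 27, 30, 21, 8 and 17, with relative folds of 1.68 to 1.49. These 10 regions were 331 to 1039 bases wide, above the upper quartile of their kind.

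Regions of mammary gland alone were rarely grouped. With neighbours at most 50000 bases apart, 14 clusters of at least 3 regions held 51 regions, or 4.51% of them. The other tissues had from 1 such cluster (pancreas) to 4238 (cerebellum). A cluster on chromosome 17 at 56184527 to 56210641 spanned 26.1 kb and held 5 regions of mammary gland alone, among them the one at 56193895 to 56194239 with a relative fold of 1.49. Of the 9 union regions in this span, 6 had a mammary gland peak, 4 a cerebellum peak, 2 a colon peak and 1 each a cerebrum and a lung peak, while kidney, liver, ovary, pancreas, spleen and stomach had none. The 5 regions of mammary gland alone define the span, and no other tissue has a peak in them by definition. The lead of mammary gland thus follows in large part from how the span was chosen. On the upper side the next region, 7616 bases away, had a peak in all 11 tissues.

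The cluster on chromosome 26 at 11501046 to 11550739 also held 5 regions of mammary gland alone. Mammary gland had peaks in 11 of its 19 union regions, colon in 7 and the other tissues in 2 to 5. The 5 regions that define this span are among the 11, so here too the lead of mammary gland follows in large part from the choice. On chromosome 9, at 56600460 to 56616667, 4 regions of mammary gland alone had relative folds of 1.33, 0.747, 0.729 and 0.597. Between them lay a region of all 11 tissues, at 56601892 to 56602912, where mammary gland was low at 0.517 times its list median. Regions of 9 and 8 tissues in the same 16.2 kb had no mammary gland peak. Peaks of mammary gland alone and missing peaks thus stood side by side there. Of the 7 clusters with at least 4 regions, others lay on chromosome 4 at 19722417 to 19815642 and on chromosome 9 at 58326514 to 58439199, with 4 regions each among 33 and 23 union regions, and the last 2, of the same size, are not described.

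Ovary was the tissue that most often shared a region with mammary gland when no other tissue had a peak. Of the 2073 regions with a peak in mammary gland and 1 other tissue, 807, or 38.9%, had their other peak in ovary. Cerebellum followed with 237 and stomach with 232, and the remaining tissues had 74 (pancreas) to 165 (spleen). Ovary also had many regions of its own, 26412, and cerebellum had 35015. Per 100 regions of the partner alone, ovary had 3.06 regions shared with mammary gland, rank 7 of the 10 partners, below stomach with 28.4, pancreas with 17.7 and colon with 9.24. Ovary thus led by number and not relative to the regions it had alone. Seen from ovary, mammary gland was an ordinary partner, rank 7 of its 10, below cerebellum with 14565 and kidney with 3718. The MBD libraries of mammary gland and ovary came from the same pair of animals, one of which gave no other tissue, so the shared animal and the tissues cannot be told apart in this count. Without ovary in the comparison, 1972 regions had a peak in mammary gland alone in place of 1130. Without cerebellum, the regions of mammary gland and ovary numbered 1231 in place of 807.

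Regions that lacked a peak in mammary gland alone numbered 2059, which was 1.67% of the 123587 regions with a peak in the other 10 tissues. Mammary gland ranked 7 for this count, and 11 with equal list sizes, where it had 1090. Stomach had 1414, the median of the others was 3085, and cerebellum had 13152. Their median width was 379 bases, against 798 bases for the regions of all 11 tissues. In the other 10 tissues these regions were moderate, with a median relative fold of 0.881 (median over regions of the median of the 10), and this median exceeded 1 in 478 of the 2059. In 11 of them all 10 other tissues were above their own list medians. A mammary gland region lay within 500 bases of 22.5% of these regions, against 25.4% of all union regions.

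The largest cluster of such regions lay near the distal end of chromosome 21, at 48273462 to 48392966, 2.47 Mb before the last peak of that chromosome. It spanned 119.5 kb and held 11 regions that lacked a peak in mammary gland alone, 531 to 1454 bases wide. The next largest cluster, on chromosome 28 at 29125077 to 29217350, held 4, and all others held 3. In the other tissues the largest cluster of this kind ran from 3 regions (stomach) to 54 (cerebellum), with a median of 5.

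In this stretch mammary gland had peaks only in the regions that every tissue shared. Of the 55 union regions in the span, mammary gland had a peak in 16, and these were exactly the 16 that had a peak in all 11 tissues. The other tissues had a peak in 32 (colon, spleen and stomach) to 52 (cerebellum) of the 55. Counting the 33 regions present in at least 8 tissues, mammary gland had 16 and the others 30 (ovary) to 33. The 11 regions that define the cluster are among these 33, so this contrast follows in large part from how the span was chosen. Mammary gland peaks covered 18.2% of the span, against 31.3% (stomach) to 45.5% (cerebellum) in the others.

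Over the 16 regions of all tissues in the span, the median relative fold of mammary gland was 2.89. This was inside the range of the others, from 1.29 (ovary) to 4.18 (lung). In the adjoining stretches of the same length, mammary gland had a peak in 16 of 16 regions present in at least 8 tissues before the span and in 24 of 24 after it. The other tissues had 14 to 16 and 18 to 24 there. The span ends at lacking regions by the rule for clusters, which leaves no further such region within 50000 bases of it, so the flanks are a description and no test. The span held 3 lacking regions in place of 11 with the 50% of each list of highest fold, and 5 with gaps of up to 500 bases merged.

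**Figure D2:**
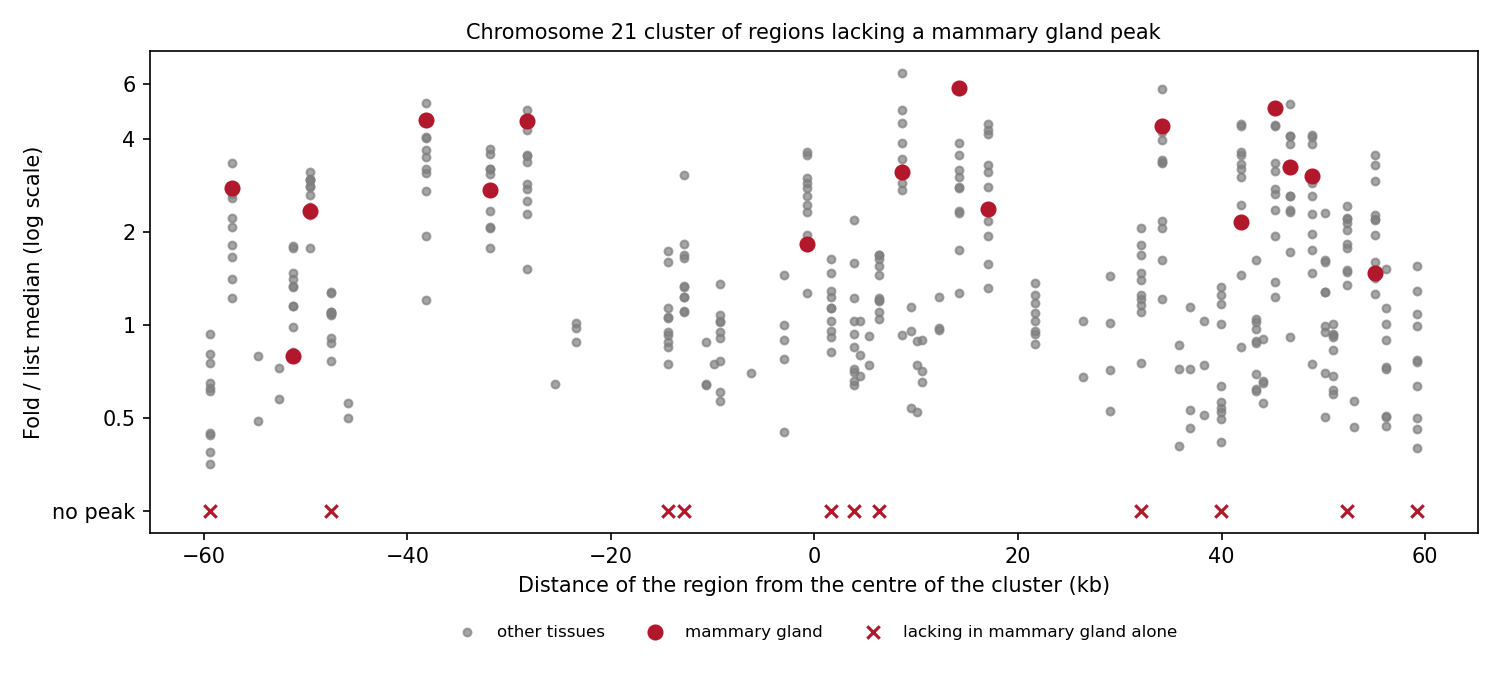
Relative fold (fold over list median, log scale) of each tissue in the union regions of the chromosome 21 cluster, by distance from its centre in kb. Mammary gland (red) is present in the 16 regions shared by all tissues, and crosses mark the 11 regions where mammary gland alone has no peak.

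Among the 2059 regions, the one with the highest median relative fold in the other tissues belonged to this cluster. At 48385268 to 48385898 on chromosome 21, 631 bases wide, the relative fold was 2.43 in spleen, 2.21 in pancreas, 2.19 in cerebellum, 2.13 in colon, 2.02 in kidney, 1.82 in stomach, 1.77 in lung, 1.51 in cerebrum, 1.49 in ovary and 1.34 in liver. Each of the 10 tissues was thus well above the median of its list where mammary gland had no peak. In the other 10 regions of the cluster the median of the others lay between 0.596 and 1.33. At 48319787 to 48320915 it was 1.33, with a lowest value of 1.10 (spleen) and a highest of 3.05 (cerebellum). At 48339091 to 48339964 it was 1.32, between 1.05 (liver) and 1.68 (cerebellum).

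Outside the cluster, the region on chromosome 30 at 26475460 to 26476077 had a median relative fold of 1.61 in the others, from 0.717 (cerebellum) to 2.07 (stomach), and the nearest mammary gland region was 50820 bases away. On chromosome 36 at 29959058 to 29959911 the median was 1.53, but the range was wide, from 0.555 (lung) to 2.75 (ovary). On chromosome 38 at 10444482 to 10444898 it was 1.48, with the nearest mammary gland region 28204 bases away. The region on chromosome 6 at 46434537 to 46434947, with a median of 1.46, had all 10 tissues above their list medians, the lowest being ovary at 1.07. The other 5 of the 10 strongest lay on chromosomes 22, 31, 28, 5 and 20, with medians of 1.47 to 1.43.

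A further stretch, on chromosome 5, had no mammary gland peak at all. On chromosome 5 at 29196388 to 29212144, within 15.8 kb, 3 of the 4 union regions lacked mammary gland alone and mammary gland had no peak in the remaining one either. The medians of the others in these 3 regions lay between 0.792 and 1.14. The other large clusters were more mixed. In that of chromosome 28, mammary gland had a peak in 7 of 22 union regions, on chromosome 3 at 57164758 to 57225449 in 14 of 31, and on chromosome 8 at 69687949 to 69770844 in 26 of 43.

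Over the 121528 regions common to the 11 tissues, the relative fold of mammary gland was compared with the median of the other 10. It was at least 2 times higher in 4192 regions, or 3.45%, and at least 2 times lower in 1947, or 1.6%. No other tissue had as many higher regions. Cerebellum had 2894, ovary 2650 and stomach 80, with a median of 610.5 in the others. For lower regions mammary gland ranked 9, between 1317 in lung and 9747 in cerebellum. Mammary gland lay outside the range of all 10 others in 4037 of the higher and 1628 of the lower regions. In the same way cerebellum was outside the range in 2627 of its 2894 higher regions, and stomach in 56 of its 80. Such a position was thus common among regions chosen at 2 times, and its share over all 121528 regions was not computed.

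The higher regions were wide. Their median width was 1658 bases, against 798 bases in all 121528 regions and 668 bases in the lower ones. The share of higher regions rose with width, from 0.0903% in the narrowest 10% (up to 352 bases) to 10.8% in the widest 10% (2493 bases or more). In that widest part the other tissues had 0.00823% (cerebrum) to 2.47% (lung). The median log2 difference of mammary gland from the others there was 0.55, and it was −0.02 in the narrowest part. Lung followed the same course, with 0.49 in the widest part, while ovary had −0.57.

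The count also moved with the spread of the folds. When the folds of every tissue over these regions were given the same distribution, an alternative added after the data were seen, 262 regions were at least 2 times higher, 228 of them among the 4192, and mammary gland ranked 8. The number of lower regions was 1682 in place of 1947. It was 82 with each list limited to the 50% of its peaks of highest fold, where 97.7% of the regions that differed were higher, and 1183 and 1284 with a coverage of at least 50% and with gaps of up to 500 bases merged. Higher regions were 68.3% of all those that differed with list medians and 13.5% with equal distributions. With each list scaled to its median over the regions of all tissues they were 79.5%, and this scaling changed the median log2 difference from 0.06 to 0.12. With equal distributions the widest part of the regions had 0.0165% higher. Whether the wide upper end of the mammary gland list arose in the tissue or in its libraries was not tested.

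**Figure D3:**
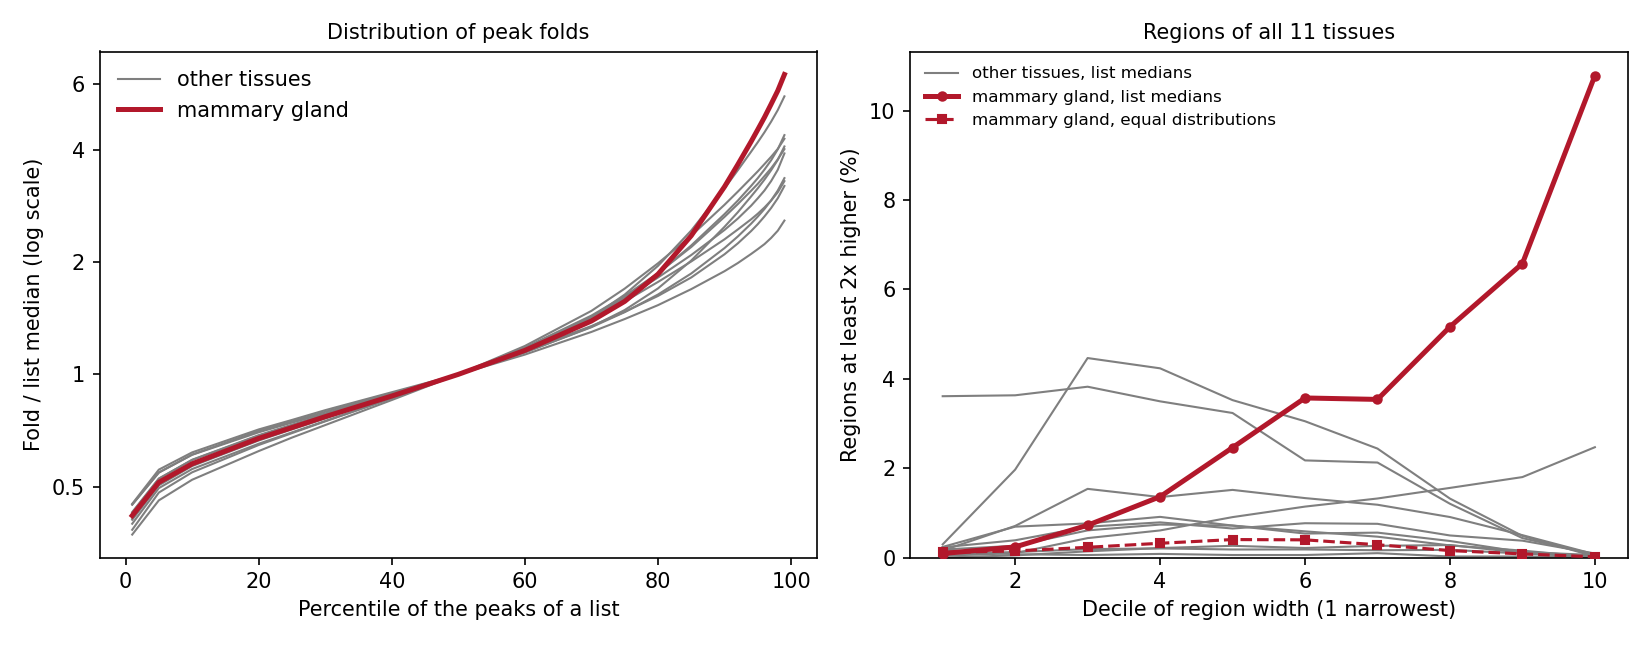
Left, relative fold (log scale) at each percentile of the peaks of a list, with mammary gland in red reaching 6.38 at the 99th percentile. Right, percent of the regions of all 11 tissues at least 2 times higher, by decile of width; mammary gland rises to 10.8% with list medians (solid) and stays at or below 0.403% with equal distributions (dashed).

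Higher regions formed 251 clusters of at least 3, holding 1014 regions. Of these clusters, 118 (47.0%) lay within 5 Mb of the last peak of a chromosome. Counted as single regions, 26.5% of the higher regions and 17.9% of all 121528 lay there. A share of clusters and a share of regions are unlike measures. No cluster of 3 or more regions was left among the regions higher under both scalings. The other tissues had from 0 (colon, pancreas, spleen and stomach) to 74 (ovary) such clusters. The largest, on chromosome 10 at 68814336 to 69137494, held 14 higher regions among 65 regions of all tissues, with a median log2 difference of 0.57 over those 65. It was followed by 13 regions on chromosome 4 at 86646680 to 86903331 and 11 on chromosome 26 at 37990893 to 38252415. These ended 0.193, 1.37 and 0.712 Mb before the last peak of their chromosomes. A cluster of 10 on chromosome 2 at 56018296 to 56230218 was interstitial, 29.2 Mb from the end. Another, on chromosome 16 at 55082896 to 55416431, held 10 higher and 1 lower region among 89 regions of all tissues, 4.18 Mb from the end.

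Of the higher regions, 26.5% lay in the last 5 Mb of a chromosome, against 17.9% of all 121528. Distal regions were also wider, with a median of 1308 bases in the last 1 Mb and 739 bases beyond 20 Mb. Within classes of width the distal regions did not lead throughout. In the widest 10% of the regions 12.7% of the distal and 9.64% of the other regions were higher, but among regions of 649 to 798 bases the shares were 2.30% and 2.49%, and among those of 799 to 983 bases 1.89% and 3.91%. Distal regions were more often higher in the narrowest class and the 2 widest, and less often in the other 7 of the 10 classes. With equal distributions, 10.7% of the higher regions lay in the last 5 Mb.

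A set of 228 regions was at least 2 times higher under both scalings, which was 5.44% of the 4192 and 87.0% of the 262. They had a median width of 792 bases, lay on 37 autosomes and formed no cluster of 3. Their median relative fold was 2.61 in mammary gland and 1.02 in the others. The gap between mammary gland and the others follows from the choice of these regions. The other tissues were near the median of their lists. The 10 regions with the largest difference, all among the 228, had a relative fold 3.84 to 6.57 times the median of the others with list medians and 2.51 to 3.93 times with equal distributions.

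The largest difference lay on chromosome 25 at 34593425 to 34595520, 2096 bases wide. The relative fold was 6.64 in mammary gland, from a fold of 45.8, and 2.43 in lung, 1.81 in colon, 1.69 in kidney, 1.60 in stomach, 1.05 in spleen, 0.975 in ovary, 0.970 in pancreas, 0.875 in cerebrum, 0.633 in liver and 0.354 in cerebellum. Mammary gland was 6.57 times the median of the others and did not overlap any of them. On chromosome 9 at 35240597 to 35242719 mammary gland had 5.82, and the others 0.449 (ovary) to 2.75 (liver), so that it was 4.49 times their median. On chromosome 11 at 32876611 to 32877359 it had 5.39, and the others 0.644 (cerebrum) to 1.82 (colon) with a median of 1.20.

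The values of ovary, which shared both animals with mammary gland, were 0.975, 0.449 and 1.14 in these regions, which were chosen with mammary gland above every other tissue. On chromosome 5 at 82201562 to 82203551 mammary gland had 4.34 and lung 3.51, while the lowest tissue, cerebellum, had 0.546. On chromosome 22 at 22763321 to 22764203 mammary gland had 5.01 and the others at most 1.69 (kidney). The other 5 regions lay on chromosomes 33, 1, 1, 14 and 9, with mammary gland at 2.89 to 5.92. In the 4037 higher regions where mammary gland was the highest tissue, lung came next in 2328 (57.7%) and spleen in 562. Of the other tissues, lung also had the highest 99th percentile of the folds, 5.57 times its list median. How often lung was the highest of the others over all 121528 regions was not computed.

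**Figure D4:**
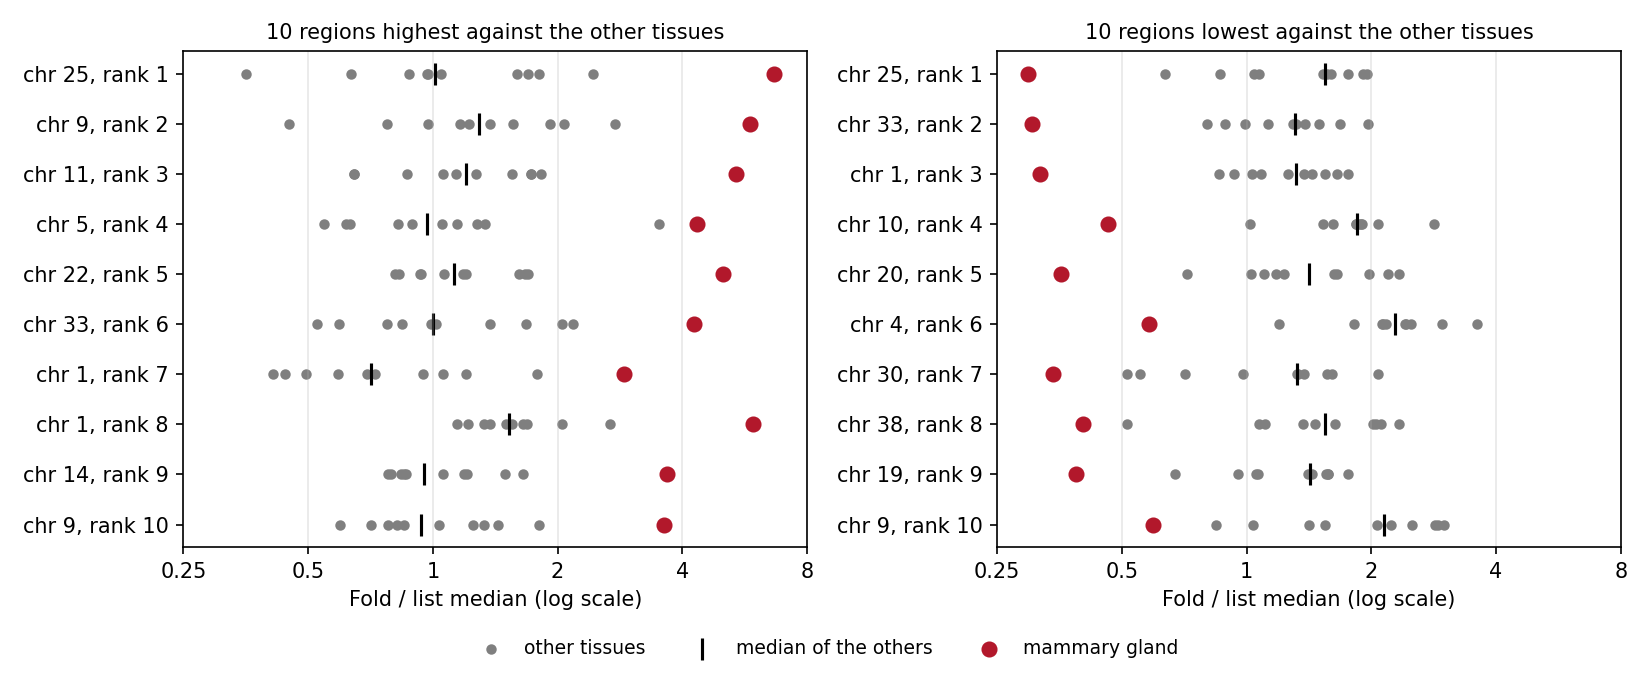
Relative fold (x axis, log scale) of each tissue in the 10 regions with the largest difference upward (left) and downward (right), with mammary gland in red and the median of the others as a bar. Mammary gland lies outside the points of the other 10 tissues in each region, by choice of the regions.

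Lower regions were narrower and scattered. Their median width was 668 bases, and 1623 of the 1947 (83.4%) were at least 2 times lower under both scalings. In these 1623 the median relative fold was 0.566 in mammary gland and 1.31 in the others, a gap that follows from the choice of the regions. Mammary gland peaks were short there. Their covered length had a median of 372 bases over the 1947 regions, the lowest of the 11 tissues, against 383 (stomach) to 563 (cerebrum) in the others. These regions were chosen for a low mammary gland fold. Covered length was not computed for the lower regions of each other tissue, so its low value is no separate trait. Over all 121528 regions the covered length of mammary gland, 581 bases, ranked 5. In the last 5 Mb of a chromosome lay 15.9% of the lower regions.

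The lowest region lay on chromosome 25 at 49255962 to 49257146. The relative fold was 0.298 in mammary gland, 0.634 in ovary, 0.863 in colon, 1.04 in kidney, 1.07 in cerebrum, 1.52 in cerebellum, 1.56 in spleen, 1.60 in stomach, 1.75 in lung, 1.91 in pancreas and 1.95 in liver. Mammary gland was 5.18 times below the median of the others, and its peak had a −log10 p-value of 3.33, against a list median of 24.2. On chromosome 33 at 27724860 to 27725596 it had 0.304 against a median of 1.31, and on chromosome 1 at 114199363 to 114200169 it had 0.318 against 1.31. Among the 10, the highest median of the others was on chromosome 4 at 34611260 to 34612163. There it was 2.29, from 1.20 (spleen) to 3.60 (pancreas), and mammary gland had 0.581. The other 6 of the 10 lay on chromosomes 10, 20, 30, 38, 19 and 9, between 4.00 and 3.62 times below the median.

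Clusters of lower regions were few, 27 of at least 3, and the largest held 4. Those of 4 regions lay on chromosome 7 at 78922227 to 78993349, chromosome 9 at 3395617 to 3472264, chromosome 10 at 65646249 to 65746304, chromosome 15 at 5569786 to 5627044 and chromosome 28 at 31773978 to 31879256. Under both scalings, 4 lower regions remained in the clusters of chromosomes 10 and 28. In that of chromosome 28 they were 2.16 to 2.87 times below the median of the others and 755 to 1584 bases wide. Differences near the threshold were common. A further 2601 regions lay within 0.1 (log2) below the limit for higher and 1107 short of that for lower, while 1837 and 772 lay within 0.1 beyond it. For higher regions the nearest values on either side of the limit were 2.00001 and 1.99995 times, and for lower regions 2.00006 and 1.99983 times.

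Chromosomes differed little in the strength of mammary gland peaks. The median log2 difference from the other tissues ranged from 0.02 on chromosome 5 to 0.13 on chromosome 33. The SD of these 38 medians, 0.0245, was within the range of the other tissues, from 0.0150 (stomach) to 0.0749 (cerebellum). Chromosome 32 had the fewest union regions, 4695. It also had the most regions of mammary gland alone for its size, 10.7 per 1000 mammary gland regions, and the smallest percentage of higher regions, 2.05%. These values rest on 24 and 18 regions, and the medians of the 38 autosomes were 5.08 per 1000 and 3.45%. The mammary gland peaks of chromosome 32 had a median width of 299 bases, the shortest of the autosomes, against 393 bases on chromosome 18.

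Lacking regions were most frequent on chromosome 21, with 25.5 per 1000 regions of the other 10 tissues, and on chromosome 8, with 24.5. On chromosome 21 the cluster described above gave 11 of its 60. They were least frequent on chromosome 33, with 12 regions or 7.69 per 1000. This chromosome had the largest percentage of higher regions, 5.42%. The percentage of lower regions ran from 1.08% (chromosome 14) to 2.08% (chromosome 7). The regions of all tissues were likewise shortest on chromosome 32, with a median of 390 bases, and widest on chromosome 18, with 938 bases.

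**Figure D5:**
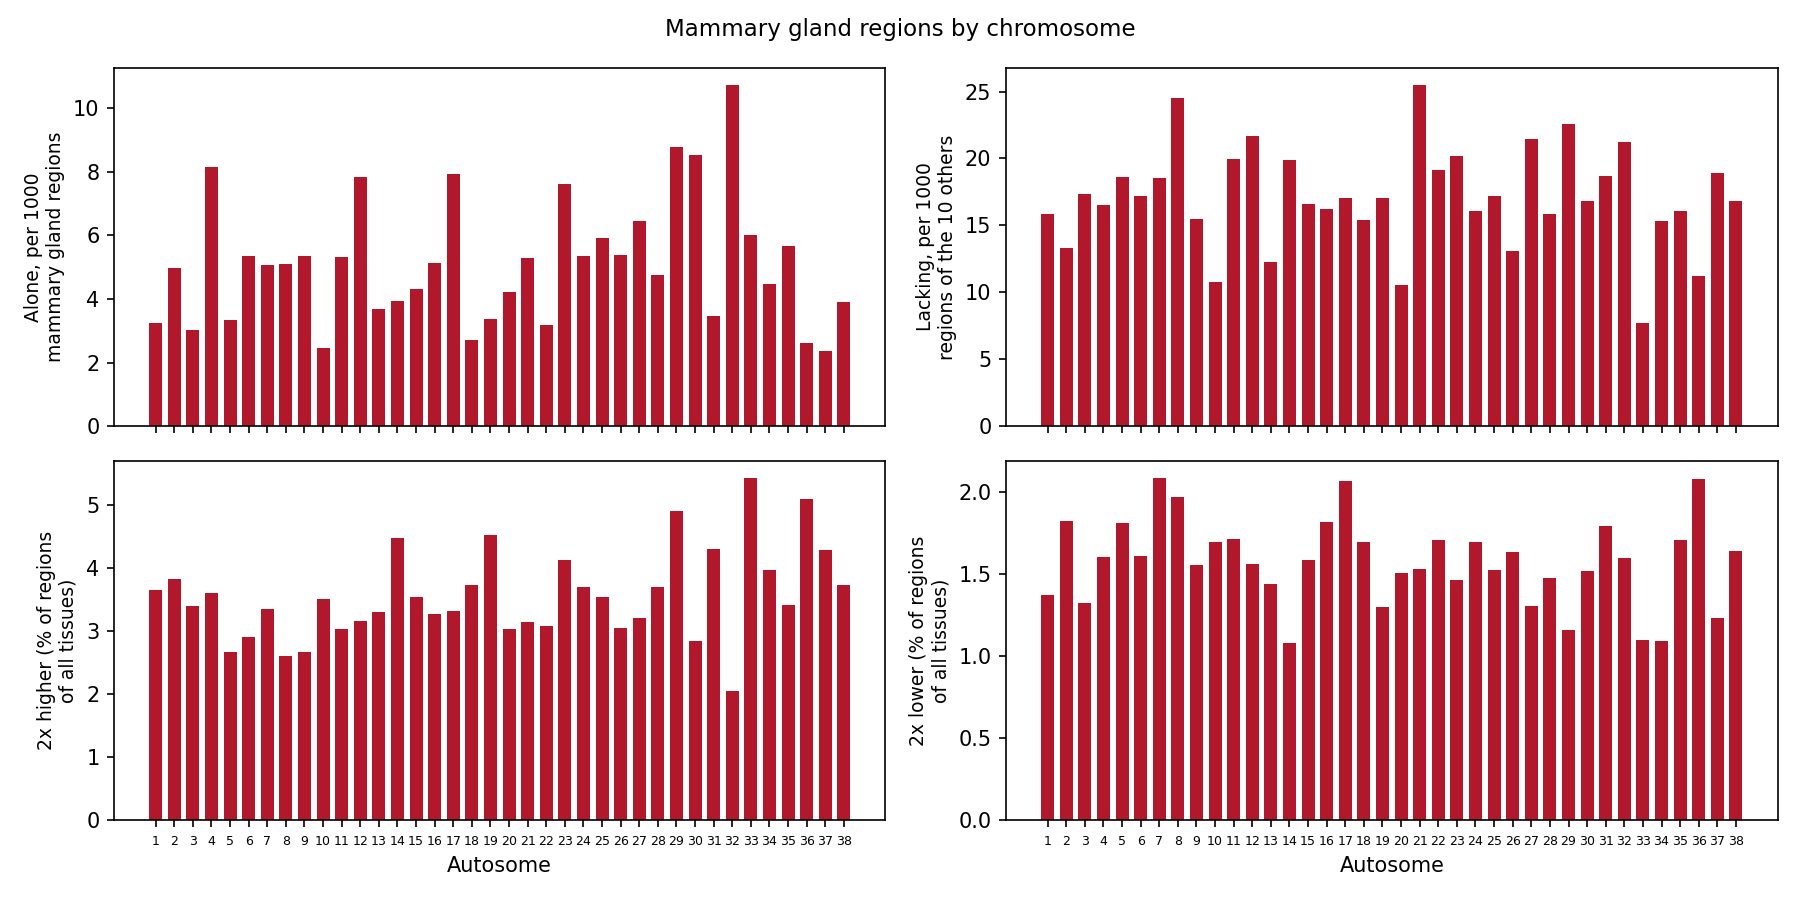
Frequency of the 4 kinds of mammary gland region on each autosome (x axis), as bars per 1000 regions or in percent. Chromosome 32 has the highest bar for regions of mammary gland alone (10.7 per 1000) and chromosome 21 for lacking regions (25.5 per 1000).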

How the data were processed

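MBD-seq peak lists of 11 tissues were analysed here, with 1 list per tissue from 2 MBD libraries. The genome build was CanFam3.1, per the submitters' processing notes. The aligner, the peak caller, the filters and how the libraries were combined are not given in the sources used here. The files had no header. Per the narrow-peak format and the values, the authors deposited a score (the whole part of 10 times the −log10 p-value), a fold ratio whose control is not stated, and a p-value per peak as −log10. The lists hold peaks and not reads, so the depth is unknown and a missing peak can be a weak one.

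Peaks on the 38 autosomes were merged where they shared at least 1 base. The strength of a tissue in a region was its highest fold divided by the list median. A difference was at least 2 times between mammary gland and the median of the other 10. A cluster was at least 3 regions with neighbours within 50000 bases. The 10 regions of largest value and 5 clusters with the most regions of each of the 4 kinds (ties in order of position) were described (for higher and lower regions, those with mammary gland outside the range of the others), and the cluster around the strongest region of mammary gland alone was added after its values were seen. The members and lists were chosen with earlier results of these data known. Genes and sequences were not analysed here, because no genome or annotation of this build was used. The code was tested on simulated lists. Alternatives were stricter or equal lists, other merging, overlap, scaling and size rules, chromosome X, other sets of tissues, and equal distributions of the folds. The versions were 3.11.15 for Python, 2.4.6 for numpy, 2.3.3 for pandas and 3.10.9 for matplotlib.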

Additional observations from a re-analysis of the deposited data

Results flagged for a closer look

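Within the 10 other tissues, 36 sets of values were examined for 1 value far from the rest, where chance flags about 1 in 20, and 6 had one. Cerebellum lacked a peak alone in 13152 regions, far above the next tissue. Ovary shared 807 regions with mammary gland and no other tissue, far above the next partner. In the region on chromosome 30 from 26475460, where mammary gland had no peak, cerebellum was far below the rest with a relative fold of 0.717. Pancreas was far below the rest, at 0.419, in the region on chromosome 5 from 2176307, which also lacked a mammary gland peak. Lung was far above the rest, at 3.51, in the region on chromosome 5 from 82201562 where mammary gland was higher. Ovary was far below the rest, at 0.516, in the region on chromosome 38 from 16484890 where mammary gland was lower.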

How the results depend on the processing

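No paired analysis was possible because each tissue had a single list. Regions of mammary gland alone numbered 1963 when each list was limited to the 50% of its peaks that had the highest fold, 2442 with equal list sizes and 3614 with the 5 lists whose shortest peak is 200 bases or longer, and from 1204 to 1972 when 1 other tissue was left out, the highest without ovary. Lacking regions numbered 1120, 1090 and 15703 under the same settings, and 2216 to 2690 with 1 tissue left out. Higher regions numbered 6525 with those 5 lists, 19143 at 1.5 times and 262 with equal distributions, and 3310 to 5685 with 1 tissue left out. Lower regions numbered 82 with the stricter threshold, 1284 with gaps of up to 500 bases merged, 1183 with at least 50% of a region covered, 4770 with the 5 lists and 10782 at 1.5 times, and 1980 to 2266 with 1 tissue left out. Regions of mammary gland and ovary numbered 4428 with the 5 lists and 866 to 1231 with 1 tissue left out, the highest without cerebellum. Clusters of at least 2 regions numbered 78 (alone), 144 (lacking), 687 (higher) and 181 (lower). With neighbours within 100000 bases there were 41 clusters of lacking and 64 of lower regions. The span of the chromosome 21 cluster held 3 lacking regions under the stricter threshold and 5 with gaps merged, and 8 to 14 under the other settings. Of the alternative values of the main counts, 74 were within 1.5 times and the 23 others are covered above. The rank of mammary gland for higher regions stayed 1 under the stricter threshold, equal list sizes, merged gaps and the coverage rule, and was 8 with equal distributions. Its rank for lacking regions was 6 to 11 (7 in the report, 11 with equal list sizes, 9 with the coverage rule). The causes of these changes were not tested.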
